A study of Mus musculus with 21 samples.

Results

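The genes described here are the 10 mouse genes of the MHC class II pathway, H2-Aa, H2-Ab1, H2-Eb1, H2-DMa, H2-DMb1, H2-DMb2, H2-Oa, H2-Ob, Cd74 and Ciita, chosen by name out of 24455 genes in a single-cell RNA-sequencing count table. All 10 were in the table, and each is given in all 21 libraries. Mouse embryonic fibroblasts (MEFs) had been transduced with lentiviruses carrying sets of transcription factors and collected 9 or 3 days later, and dendritic cells (DCs) sorted from spleen and untransduced MEFs were profiled beside them. Each set is named by its initials. The PIP set held Pu.1, Irf4 and Prdm1, PI4 held Pu.1 and Irf4, PIB held Pu.1, Irf8 and Batf3 (spelled Baft3 in the labels), PI8 held Pu.1 and Irf8, SII held Spib, Irf8 and Ikzf2, and SI8 held Spib and Irf8. All 6 sets were made in Clec9aCre/Cre Rosa26stopflox-tdTomato/tdTomato MEFs and sorted as live tdTomato+ cells, so these libraries hold only cells in which Cre, driven from the Clec9a locus, had switched on the reporter. SII and SI8 were also made in hCD2Cre/WT Rosa26stopflow-YFP/WT MEFs and sorted as live YFP+ cells, called the hCD2 line here. With 1 library for each set, line and day, 8 libraries were from day 9 and 8 from day 3. The splenic pDC (CD11c+SiglecH+B220+BST2+), cDC2 (CD11c+MHC-II+CD11b+) and cDC1 (CD11c+MHC-II+CD8alpha+) libraries and the 2 MEF libraries were wildtype. Age was not given in the labels. The cDC2 and cDC1 cells had been sorted on MHC-II protein, so their class II level was in part selected by the sort, while the pDC sort did not use it. Transduced and MEF libraries differ in genotype, virus and sort together, and these cannot be told apart.

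Class II molecules are pairs of an alpha and a beta chain that show peptides from engulfed proteins to helper T cells. H2-Aa and H2-Ab1 encode the chains of I-A, and H2-Eb1 encodes the beta chain of I-E. Cd74 encodes the invariant chain, which blocks the peptide groove until it is cut down to a short remnant in the endosome. H2-DMa pairs with H2-DMb1 or H2-DMb2 to form DM, which swaps that remnant for peptide, and H2-Oa pairs with H2-Ob to form DO, which inhibits DM. Ciita encodes the class II transactivator, which binds no DNA itself but is recruited to class II promoters by the RFX, NF-Y and CREB proteins seated on their X and Y boxes. Dendritic cells and B cells transcribe Ciita constitutively, whereas fibroblasts are known to do so after interferon gamma.

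In the GRCm38 annotation (GENCODE M21), 8 of the 10 genes lie on chromosome 17 between the start of H2-Oa at 34092340 and the end of H2-Eb1 at 34316674. RefSeq promoter sequences of build GRCm38.p6, each of 250 bases before and 50 after a start site, were at hand for 7 of the 10 members. H2-Ab1, Cd74 and Ciita had none. The promoters are shown because 8 of the members fell together in SII against SI8, below. The letters TGATTGG, the core of a class II Y box with its inverted CCAAT, were present on the gene's own strand in 6 of these 7 genes, in H2-Aa, H2-Eb1, H2-DMb1, H2-DMb2, H2-Oa and H2-Ob, and were not in either of the 2 H2-DMa windows. Searched on both strands, they were in 7.82% of the 32851 promoters of this length. The letters AAC, any pair of bases and then ATGATG, read off the X box region of these promoters after they were seen, were in 4 of the 7 genes, against 0.137% of all promoters. The stretches that follow run from 60 bases before TGATTGG to 35 bases after it, with both motifs in capitals:
H2-Aa: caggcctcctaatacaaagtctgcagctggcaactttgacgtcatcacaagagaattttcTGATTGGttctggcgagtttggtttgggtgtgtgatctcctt
H2-Eb1: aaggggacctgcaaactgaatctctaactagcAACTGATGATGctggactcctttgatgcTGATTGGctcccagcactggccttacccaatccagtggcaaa
H2-DMb1: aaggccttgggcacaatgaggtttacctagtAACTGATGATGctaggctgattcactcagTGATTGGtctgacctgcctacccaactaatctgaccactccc
H2-DMb2: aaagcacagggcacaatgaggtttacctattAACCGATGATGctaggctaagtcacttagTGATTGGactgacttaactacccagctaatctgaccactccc
H2-Oa: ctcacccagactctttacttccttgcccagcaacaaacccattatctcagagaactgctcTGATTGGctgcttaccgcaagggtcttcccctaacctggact
H2-Ob: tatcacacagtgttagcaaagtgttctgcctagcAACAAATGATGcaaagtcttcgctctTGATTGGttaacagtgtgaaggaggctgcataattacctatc

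These stretches lie at chr17:34287832-34287933 (minus strand) for H2-Aa, chr17:34305746-34305847 (plus strand) for H2-Eb1, chr17:34153068-34153169 (plus strand) for H2-DMb1, chr17:34145097-34145198 (plus strand) for H2-DMb2, chr17:34092274-34092375 (plus strand) for H2-Oa and chr17:34238786-34238887 (plus strand) for H2-Ob. TGATTGG began 45 bases upstream of the start site in H2-Oa, the nearest of the 6, and 92 bases upstream in H2-DMb2, the farthest. Where both motifs were present they did not overlap and 15 to 18 bases separated them, 15 in H2-Ob, 17 in H2-Eb1 and 18 in both H2-DMb1 and H2-DMb2. A match of letters is a description and not a measured binding site. H2-DMa, with neither motif, fell in SII as well, and H2-Oa and H2-Ob, with TGATTGG, were not tested there in the main fit. The part of these motifs in the fall was not tested. H2-DMb1 and H2-DMb2 had 59.6% identical bases over the last 500 bases of their longest transcripts, the part that 3′ libraries read.

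Ciita lies on chromosome 16 (10480059 to 10528418, plus strand) and Cd74 on chromosome 18 (60803848 to 60812652, plus strand). Exons of H2-DMa, H2-Oa and Ciita overlap those of Brd2, BC051537 and Dexi on the other strand, and Cd74 overlaps Mir5107 on its own strand. How the deposited counts treated such overlaps is not given in the sources used here, so these levels carry that uncertainty.

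Depth ranged between 2291128 and 89394715 UMIs (unique molecular identifiers, 1 per captured transcript) per library, with 411 to 4169 cells each. Of the SI8 hCD2 cells, 97.4% at day 9 and 98.3% at day 3 had under 10000 UMIs, and the transcripts Gm42418, AY036118 and Lars2, taken here as marks of RNA quality, took 10.8% and 8.33% of their UMIs, against 3.66% or less in each other library. The PI8 day 9 library stood apart. Its 10 fibroblast markers summed to 13.2 CPM (a gene's UMIs scaled to a common library total), against at least 448 CPM in each other transduced library, and its 8 progenitor markers, Kit and Mpo among them, summed to 1778 CPM, against 23.6 CPM or less. Of all barcodes, 83 occurred in more than 1 library, at most 4 in a pair of libraries, and none of these had identical counts. All levels below are CPM of summed UMIs unless another unit is given. No label says that libraries of 1 group came from separate cultures, so p-values measure the spread between libraries, which may be technical, and all intervals cover counting error only. In such bulk sums, fewer positive cells and less RNA per cell cannot be told apart.

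**Figure D1:**
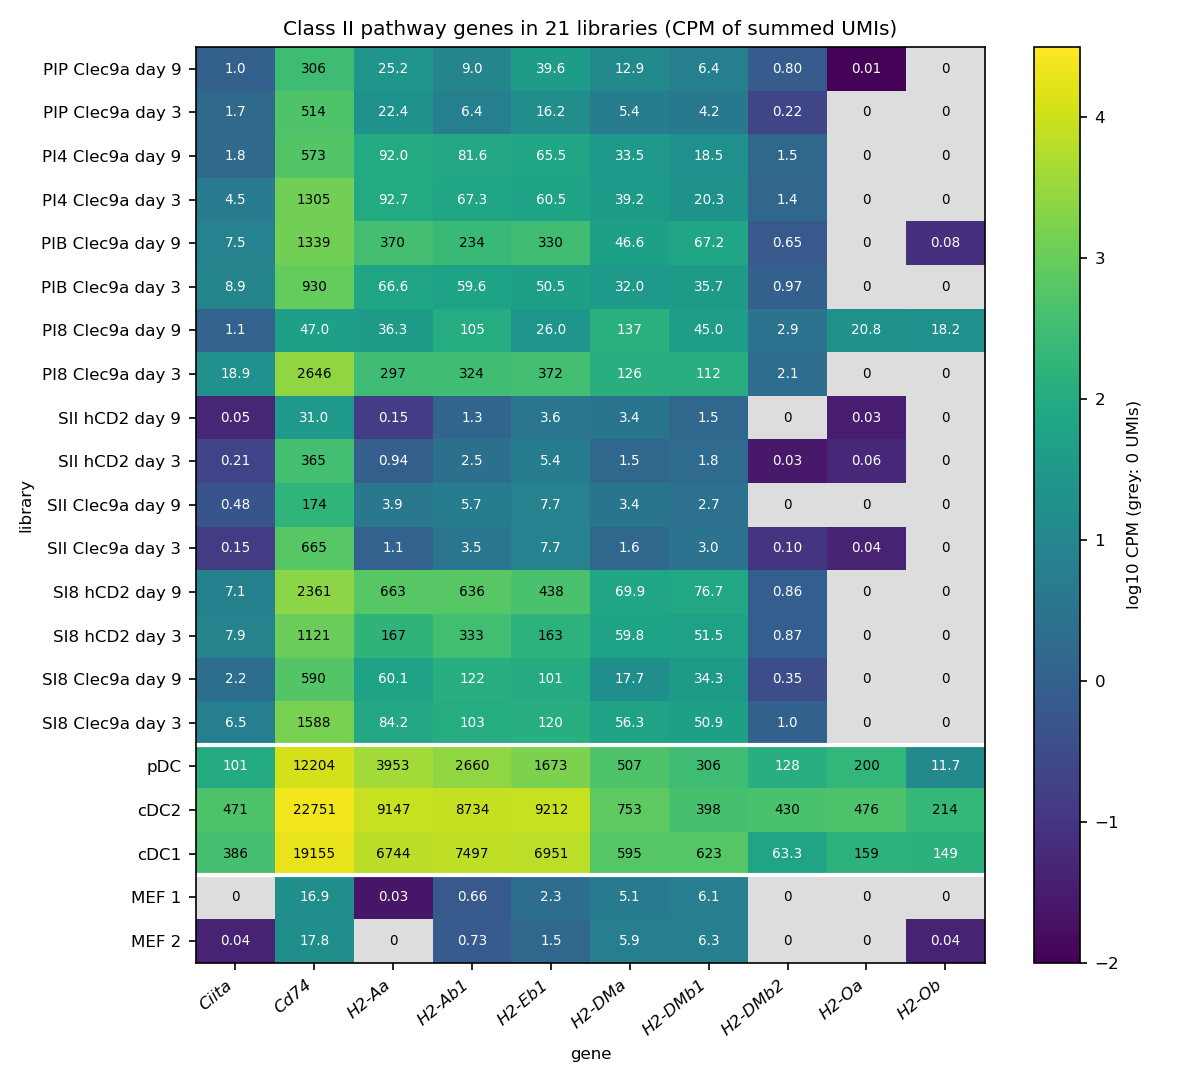
CPM of the 10 genes (columns) in 21 libraries (rows), coloured by log10 CPM with grey for 0 UMIs; transduced libraries stand above the upper white line, then splenic DCs, then MEFs. The 3 splenic rows are bright except for H2-Ob in pDC, the 4 SII rows are dark except for Cd74, and H2-Oa and H2-Ob are above 0.0774 CPM in 1 transduced row, PI8 day 9.

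With factors delivered, the pathway was present in most libraries. At day 9, Cd74 spanned 31.0 to 2361 CPM (median 439), against 16.9 and 17.8 CPM in MEFs, and all 8 libraries were above both MEF libraries. H2-Aa at day 9 spanned 0.148 to 663 CPM with a median of 48.2, against 0.0252 and 0 CPM in MEFs. Both passed edgeR's quasi-likelihood test with Benjamini-Hochberg adjustment over all genes, Cd74 with a log2 change of 5.44 ± 1.65 (SE, adjusted p = 0.0433) and H2-Aa with 13.53 ± 4.15 (adjusted p = 0.0453). Both calls were lost in 5 of 9 alternatives, at log2 changes of 4.796 to 6.052 for Cd74 and 9.81 to 15.74 for H2-Aa. These 2 of the 8 members tested were the ones past 0.05, beside 10.6% of all 16538 genes tested and 5.01% in the higher direction. The mean day 9 CPM of Cd74 was 39.0 times the pooled MEF level. Its 95% counting interval, 37.1 to 41.1, covers the MEF counts alone and leaves out the spread of the 8 libraries. For H2-Aa, with 1 UMI in MEFs, the ratio of mean CPM was 13688, with an interval of the same kind of 2457 to 540626.

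At day 3 the members past the test were Cd74, H2-Aa and Ciita, 3 of 8, beside 17.1% of all genes and 8.7% in the higher direction. Cd74 spanned 365 to 2646 CPM at day 3, against 16.9 and 17.8 CPM in MEFs, a log2 change of 6.21 ± 1.72 (edgeR, adjusted p = 0.0204). Ciita spanned 0.145 to 18.9 CPM with a median of 5.48, against 0 and 0.0417 CPM in MEFs, a log2 change of 8.08 ± 2.53 (adjusted p = 0.0363). H2-Aa changed by 12.78 ± 4.07 (adjusted p = 0.0393). The groups did not overlap for these 3 genes, nor for H2-Ab1 and H2-Eb1, whose adjusted p at day 3 was 0.0766 and 0.0796. H2-DMb2 (adjusted p = 0.0567) had 2 UMIs in SII hCD2 day 3, its lowest library. At 0.0276 CPM that value was under the 0.0342 CPM that a count of 0 in both MEF libraries allows. How many of all genes lacked overlap between groups was not counted, here or below. H2-DMb2, with none in MEFs, was at least 24.4-fold higher at day 3 on mean CPM against the floor of 3 counts over both MEF libraries, and at least 25.8-fold higher at day 9. The median log2 change of the 8 members was 6.49 at day 9 and 6.87 at day 3, against 0.19 and 0.14 for all genes tested. Leaving out either MEF library left no call at either day, and DESeq2 called 6 members at each, where it called 3608 of 16538 genes at day 9 and 4656 at day 3.

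In untransduced MEFs the classical chains were near the limit of counting. H2-Aa had 1 UMI in one MEF library and none in the other, H2-Ab1 had 0.656 and 0.729 CPM and H2-Eb1 had 2.30 and 1.54 CPM. Ciita had no UMI in one and 2 UMIs in the other. Cd74 stood at 16.9 and 17.8 CPM, H2-DMa at 5.10 and 5.88 CPM, H2-DMb1 at 6.06 and 6.31 CPM, and H2-DMb2 and H2-Oa had no UMI in either. MEFs thus held RNA of Cd74 and of one DM pair with next to no Ciita RNA. A count of 0 in both libraries together allows up to 0.0342 CPM.

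H2-DMa and H2-DMb1 overlapped the fibroblast level. In SII libraries they were below it. H2-DMa had 1.52 to 3.41 CPM in the 4 SII libraries, against 5.10 and 5.88 CPM in MEFs, and H2-DMb1 had 1.53 to 3.01 CPM, against 6.06 and 6.31 CPM in MEFs. That pair of groups was not tested. PIP day 3 was also near or below MEFs, with 5.44 CPM of H2-DMa and 4.23 CPM of H2-DMb1.

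Of the other class II machinery, Ctss, the protease that trims the invariant chain, rose at both days. It averaged 95.4 CPM at day 9 and 68.1 CPM at day 3, against 0.241 CPM in MEFs (log2 changes 8.73 ± 1.30 and 8.28 ± 1.27, edgeR adjusted p = 0.000584 and 0.000466). March1, the ubiquitin ligase that removes class II from the surface, had no UMI in MEFs and averaged 34.1 CPM at day 9 and 21.2 CPM at day 3 (adjusted p = 0.00184 and 0.00151). Cd86, a costimulatory ligand, likewise had none in MEFs and averaged 4.90 and 10.6 CPM (adjusted p = 0.0225 and 0.00993). Ctss was 1 of 6 genes of the protease and reductase list called, and Cd86 was 1 of 3 of the costimulation list at either day. Of the 7 genes of the RFX, NF-Y and CREB complex, none was called at day 9 and Rfxap, an RFX subunit, was the 1 called at day 3, with 26.0 CPM at day 3 against 16.9 CPM in MEFs (log2 change 0.76 ± 0.25, adjusted p = 0.0456). Among markers of other cell types, 8 of 10 fibroblast markers fell at day 9 and 7 at day 3, and of 10 macrophage markers 1, Cd68, rose, while the median log2 change of the 10 was 9.36 at day 9 and 6.85 at day 3. Of 8 cDC1 markers 1, Cadm1, rose at both days, and no pDC marker was called. Of 5 cDC2 markers tested, 2 rose at day 9, Itgam and Clec4a2, and 1 at day 3, Itgam. Of 7 B cell markers tested, 1 fell at each day. The part of all these markers in the class II values was not tested.

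Splenic DCs held far more of each classical chain than any transduced library. Cd74 had 12204 CPM in pDC, 22751 in cDC2 and 19155 in cDC1, and the highest transduced library, PI8 day 3, had 2646. H2-Aa had 3953, 9147 and 6744 CPM in the same order and at most 663 CPM after transduction. Ciita had 101, 471 and 386 CPM, against 18.9 CPM in PI8 day 3, the highest transduced value. The lowest splenic value exceeded the highest transduced one by 4.61 times for Cd74, 5.97 times for H2-Aa, 4.18 times for H2-Ab1, 3.82 times for H2-Eb1, 3.69 times for H2-DMa, 2.72 times for H2-DMb1, 5.36 times for Ciita, 7.61 times for H2-Oa and 21.8 times for H2-DMb2. H2-Ob was the exception, with 11.7 CPM in pDC and 18.2 CPM in PI8 day 9. With 1 library per splenic type there is no test of these differences.

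The splenic types differed in how the pathway was built. H2-DMb2 had 430 CPM in cDC2, 128 in pDC and 63.3 in cDC1, while H2-DMb1 had 398, 306 and 623 CPM, so H2-DMb2 UMIs were 1.08 times those of H2-DMb1 in cDC2 (95% counting interval 1.05 to 1.11), 0.418 times in pDC and 0.102 times in cDC1. DO was uneven as well. H2-Oa had 200 CPM in pDC, 476 in cDC2 and 159 in cDC1, but H2-Ob, its partner, had 11.7 CPM in pDC, 214 in cDC2 and 149 in cDC1. H2-Eb1 was below H2-Aa in pDC, 0.423 times its UMIs, and about level with it in cDC2 and cDC1, at 1.01 and 1.03 times. H2-Eb2, a further I-E beta gene in the table, had 140 CPM in cDC2, 6.12 in pDC and 6.59 in cDC1.

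**Figure D2:**
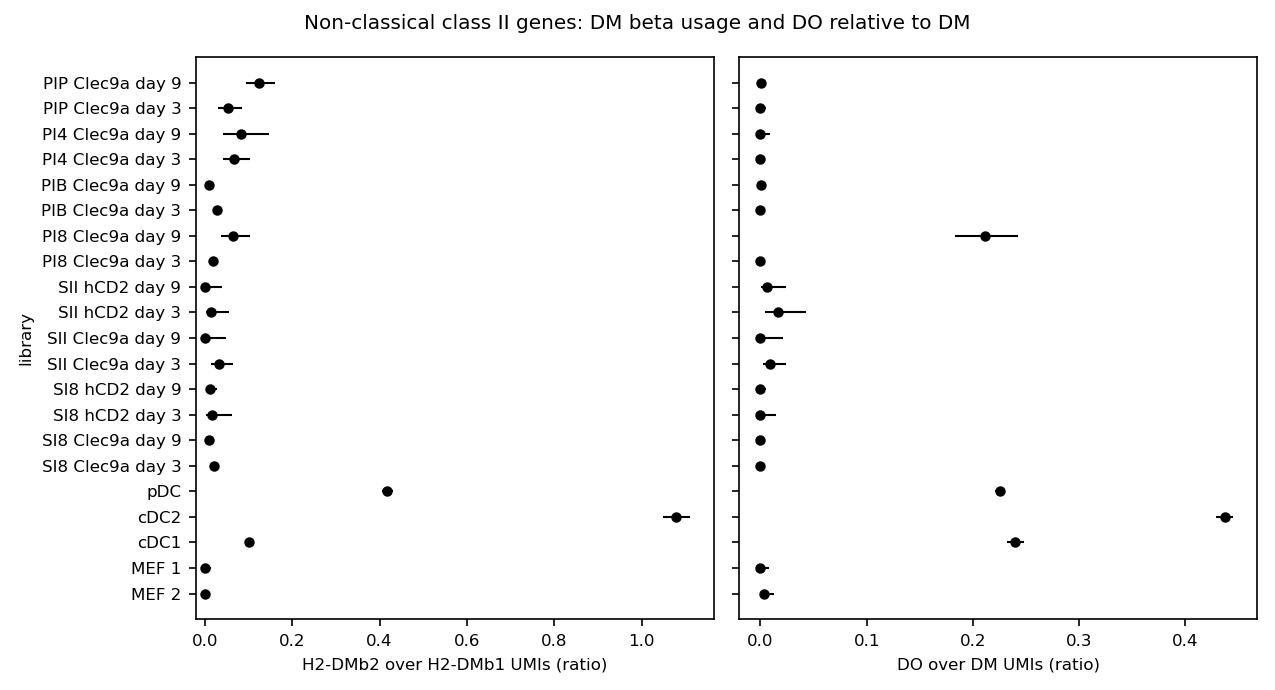
Ratios of UMIs in each library (rows), H2-DMb2 over H2-DMb1 on the left and H2-Oa plus H2-Ob over the 3 DM genes on the right, on linear axes; points are libraries and bars 95% counting intervals. cDC2 reaches 1.08 on the left, no transduced library passes 0.125, and PI8 day 9, at 0.211 on the right, is the 1 transduced library near the splenic ones.

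Transduced cells built the pathway without DO and with almost no H2-DMb2. Of the 16 transduced libraries, 11 had no H2-Oa UMI and 14 had no H2-Ob UMI, and outside PI8 day 9 neither gene passed 0.0774 CPM. H2-DMb2 spanned 0 to 2.91 CPM with a median of 0.830, and its ratio to H2-DMb1 spanned 0 to 0.125, where cDC1, the lowest splenic type, had 0.102. The highest of these ratios was in PIP day 9, at 0.125 (95% counting interval 0.0953 to 0.160). H2-Oa and H2-Ob did not pass the filter on low counts in any main fit, so 8 of the 10 members were tested in each main comparison. Both did enter the alternative fits against MEFs without the filter or with 1 MEF library left out.

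PI8 day 9 was the exception to this, too. It had 129 UMIs of H2-Oa (20.8 CPM) and 113 of H2-Ob (18.2 CPM), in 15.96% and 13.6% of its 683 cells before thinning. PI8 day 9 H2-DMa, at 137 CPM, overlapped PI8 day 3, at 126 CPM, within counting error, and both were above all other transduced libraries, while its Cd74 was 47.0 CPM and its Ciita 1.13 CPM. Cd74 made up 10.7% of the summed UMIs of the 10 genes there, against 55.5% to 97.5% in the other 15 transduced libraries. B cell markers summed to 134 CPM in it, with Ms4a1 and Fcer2a at 0, against 48.5 CPM or less in the other transduced libraries and 302 and 306 CPM in MEFs, and progenitor markers summed to 1778 CPM as above. The part of such cells in these values was not tested.

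Ikzf2 encodes Helios, a zinc finger transcription factor, and adding it to Spib and Irf8 went with less of every member tested. All 8 members tested fell in SII against SI8 (edgeR, adjusted p between 0.000228 and 0.0315), beside 37.6% of all 15423 genes tested and 18.8% in the lower direction. Their median log2 change was -5.00, against 0.04 for all genes. H2-Aa in SII had 0.148 and 0.938 CPM in the hCD2 line (days 9 and 3) and 3.95 and 1.10 CPM in the Clec9a line, against 663, 167, 60.1 and 84.2 CPM in the matching SI8 libraries. The groups did not overlap, and H2-Aa fell by 7.34 ± 1.20 on the log2 scale (SE, adjusted p = 0.00345, 4 against 4 libraries, lower in 4 of 4 pairs).

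H2-Ab1, its partner, had 1.31, 2.48, 5.69 and 3.50 CPM in SII, in the same order of libraries, against 636, 333, 122 and 103 CPM in SI8. It fell by 6.53 ± 0.83 (adjusted p = 0.00131). H2-Eb1 had 3.56, 5.43, 7.68 and 7.71 CPM in SII, against 438, 163, 101 and 120 CPM in SI8, and fell by 5.21 ± 0.61 (adjusted p = 0.000957). Every SII value of these chains lay below every SI8 value, and every SII value of H2-Ab1 and H2-Eb1 lay above both MEF values.

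Ciita, the transactivator, had 0.0492, 0.207, 0.480 and 0.145 CPM in SII, against 7.09, 7.86, 2.25 and 6.49 CPM in SI8. It fell by 5.13 ± 0.73 (adjusted p = 0.00200). The SII values rest on 3 to 15 UMIs a library. In SII hCD2 day 3, single cells held much of what there was: 12 of the 15 Ciita UMIs were in 1 cell, as were 51 of the 68 H2-Aa UMIs, and 79 of the 180 H2-Ab1 UMIs. Whether these were the same cell was not tested. H2-DMb1 fell by 4.87 ± 0.39 (adjusted p = 0.000228) and H2-DMa by 4.71 ± 0.52 (adjusted p = 0.000761), with SII means of 2.27 ± 0.71 and 2.47 ± 1.06 CPM, against SI8 means of 53.4 ± 17.5 and 50.9 ± 22.9 CPM (SD, n = 4 libraries each, edgeR). H2-DMb2 had no UMI in either SII day 9 library and fell by 4.75 ± 0.85 (adjusted p = 0.00487).

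Cd74 fell least. It had 31.0, 365, 174 and 665 CPM in SII, against 2361, 1121, 590 and 1588 CPM in SI8, and the groups overlapped, since SII Clec9a day 3 was above SI8 Clec9a day 9. The fall was 2.96 ± 0.88 (adjusted p = 0.0315), and the adjusted p was 0.0750, 0.0774 and 0.0676 without SI8 Clec9a day 3, SII hCD2 day 3 or SII Clec9a day 9. Of the 4 pairs, hCD2 day 9 differed most, by 76.2-fold, and the other 3 by 2.39- to 3.38-fold. All 4 SII libraries remained above MEFs in Cd74.

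Within the Clec9a line alone, which leaves out both shallow SI8 hCD2 libraries, all 8 members fell (2 against 2 libraries, edgeR), beside 1133 of 14798 genes. With cells of at least 10000 UMIs in that line, 7 fell, beside 1069 of 14895 genes, and Ciita had an adjusted p of 0.0505. SI8 hCD2 held 31 such cells at day 9 and 11 at day 3, too few for the same fit over all 8 libraries.

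**Figure D3:**
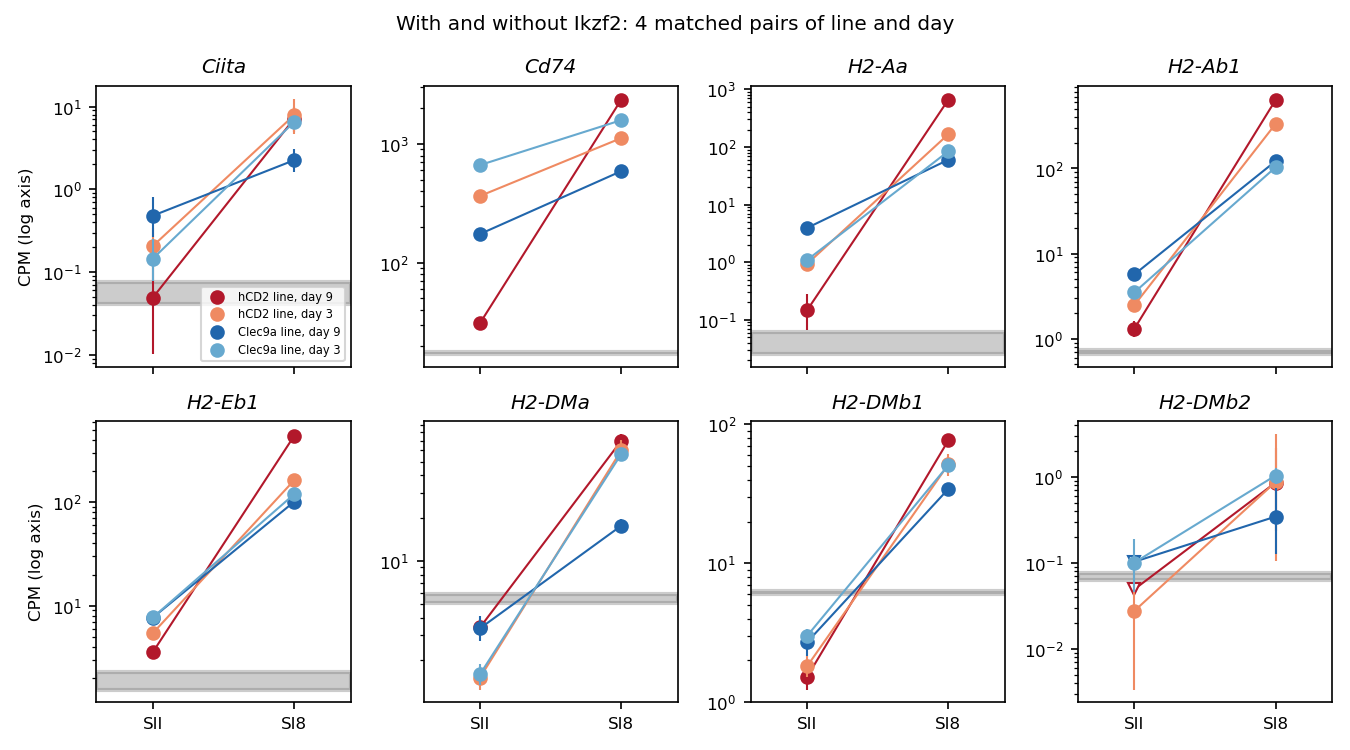
CPM (log axis) of the 8 tested members in SII (left of each panel) and SI8 (right), with lines joining libraries of 1 line and day; bars are 95% counting intervals, open triangles mark 0 UMIs drawn at the floor of 3 counts, and grey bands span the 2 MEF libraries, with 0 drawn at the floor. All lines climb towards SI8; for H2-DMa and H2-DMb1 the SII points lie below the MEF band, and for Cd74 above it.

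Of the 7 RFX, NF-Y and CREB genes, whose proteins Ciita works with, 2 rose and none fell, beside 2897 of 15423 genes that rose and 2901 that fell. Rfx5, the DNA-binding RFX subunit, averaged 11.8 CPM in SII and 3.23 CPM in SI8 (log2 change 1.52 ± 0.21, edgeR adjusted p = 0.00168), and Creb1 averaged 31.5 and 13.9 CPM (0.85 ± 0.21, adjusted p = 0.0174). The thiol reductase Ifi30, which unfolds antigens, was the 1 of 6 processing genes that fell, to 54.5 CPM in SII against 81.4 CPM in SI8 (adjusted p = 0.0211). Costimulation split, with Cd86 at 10.0 CPM in SII and 0.838 CPM in SI8 (adjusted p = 0.00240), and Cd40 at 1.16 CPM in SII and 17.99 CPM in SI8 (adjusted p = 0.000594).

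Ikzf2 itself averaged 62.4 CPM in SII and 4.32 CPM in SI8 (adjusted p = 0.000257). Prdm1, whose product is known to repress Ciita in plasma cells and which was not delivered here, averaged 14.8 CPM in SII and 1.26 CPM in SI8 (log2 change 2.99 ± 0.44, edgeR adjusted p = 0.00224). Spi1, which encodes PU.1 and was not delivered to these sets, averaged 0.0993 CPM in SII and 1.82 CPM in SI8 (adjusted p = 0.0135). Other cell type markers moved as well. Of 10 macrophage markers 8 fell, and their sum was 71.8 to 152 CPM in SII, with C1qa and Fcgr1 at 0 in all 4, against 167 to 281 CPM in SI8. Of 10 fibroblast markers 4 fell, with sums of 670 to 930 CPM in SII and 699 to 3183 CPM in SI8. Of dendritic cell markers, the cDC1 genes Xcr1, Clec9a and Tlr3 fell and Cadm1 rose, the cDC2 gene Clec4a2 fell, and of pDC genes Bst2 fell and Tcf4 rose. The 2 RNA quality transcripts Gm42418 and AY036118 fell as well. The part of these in the class II difference was not tested.

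The difference between sets was itself compared between days. None of the 8 members passed in the interaction of set and day (edgeR, 0 also at an unadjusted p under 0.05), beside 1.05% of all genes. DESeq2 called 0 members and 1414 of 15423 genes. Cd74 had a log2 interaction of -2.87 ± 1.27 (adjusted p = 0.270) and H2-DMa 1.61 ± 0.73 (adjusted p = 0.284). The count depended on single libraries, with 3 members lower without SII Clec9a day 9 (Cd74, H2-Aa and H2-Ab1) and 1 higher without SI8 hCD2 day 9 (H2-DMa). Between lines, hCD2 minus Clec9a, none passed either (edgeR, 0 at an unadjusted p under 0.05), beside 0.0195% of all genes. DESeq2 called 0 members and 66 of 15423 genes. H2-Aa averaged 208 ± 313 CPM in the hCD2 line and 37.3 ± 41.4 CPM in the Clec9a line (SD, n = 4 libraries each).

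No member passed the test between day 9 and day 3. None of 8 was called (edgeR, 0 at an unadjusted p under 0.05, 0 by DESeq2), beside 0.0808% of all genes. That share is not stable, since 1319 of 16164 genes were called without the PI8 arm and 1201 of 16090 by DESeq2, and 0 members in either. Ciita was lower at day 9 in 7 of 8 arms, with a mean of 2.66 ± 2.95 CPM at day 9 and 6.10 ± 6.18 CPM at day 3 (log2 change -1.12 ± 0.53, adjusted p = 0.335). In PIB, SI8 hCD2 and SII hCD2, among these 7, the counting intervals of the days overlapped. Cd74 was lower at day 9 in 6 of 8 arms, with means of 678 ± 802 and 1142 ± 733 CPM (log2 change -1.61 ± 0.75, adjusted p = 0.324; SD, n = 8 libraries each, edgeR). H2-Ab1 was higher at day 9 in 6 of 8 arms (0.14 ± 0.37, adjusted p = 0.892). The spread between arms was large, with H2-Aa at day 9 over day 3 at 5.55 in PIB and 0.122 in PI8.

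Within libraries, the ratio of Cd74 to the classical chains differed between days. UMIs of Cd74 over the summed UMIs of H2-Aa, H2-Ab1 and H2-Eb1 were lower at day 9 in all 8 arms, each with 95% counting intervals apart. This ratio was 4.15 at day 9 and 11.4 at day 3 in PIP, 2.40 and 5.92 in PI4, 1.43 and 5.26 in PIB, and 0.280 and 2.67 in PI8. It was 6.17 and 41.2 for SII hCD2, 10.1 and 54.0 for SII Clec9a, 1.36 and 1.69 for SI8 hCD2, and 2.09 and 5.17 for SI8 Clec9a. In splenic DCs it was 1.47 in pDC, 0.840 in cDC2 and 0.904 in cDC1, and in MEFs 5.68 and 7.82. SII exceeded SI8 in 4 of 4 pairs and PIP exceeded PI4 in 2 of 2, also with intervals apart. The ratio was described after its values were seen, its intervals cover counting error only, and UMIs were compared between genes without a length scale, since a 3′ library counts 1 end per transcript. These intervals treat UMIs as independent, although 1 cell of PI4 day 9 held 1380 of the 4514 Cd74 UMIs there.

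**Figure D4:**
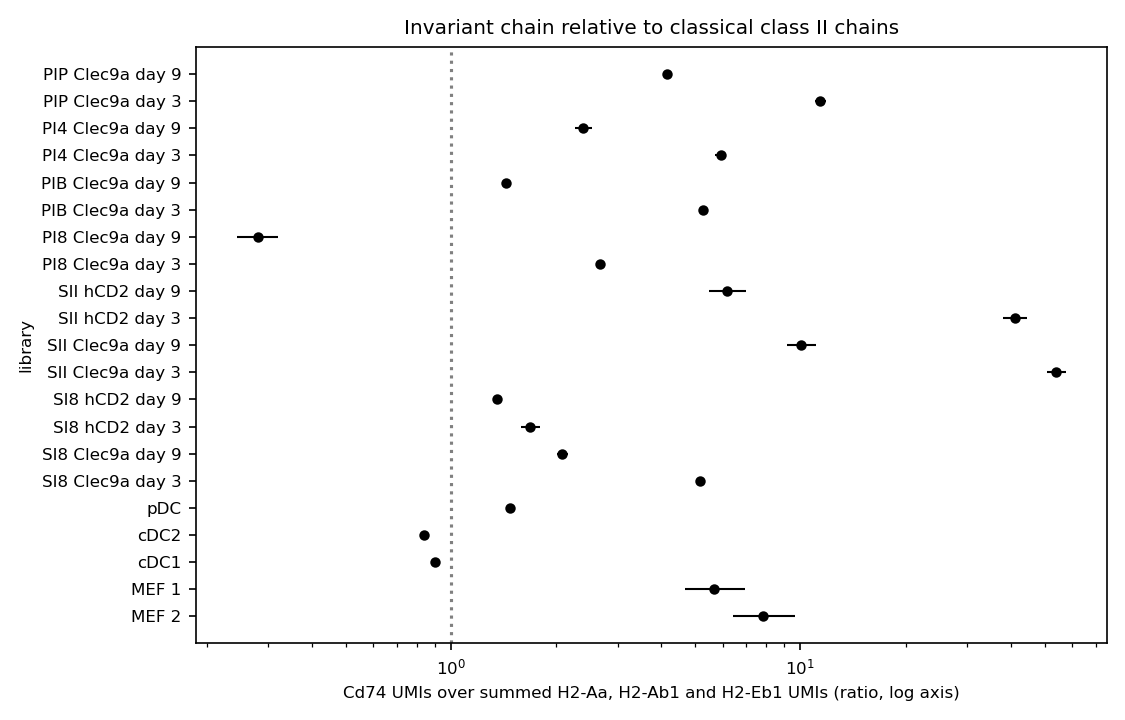
Cd74 UMIs over the summed UMIs of H2-Aa, H2-Ab1 and H2-Eb1 (log axis) in each library (rows), with 95% counting intervals; the dotted line marks a ratio of 1. SII day 3 libraries reach 41.2 and 54.0, cDC2, cDC1 and PI8 day 9 lie below 1, and in each transduced arm the day 9 point lies left of the day 3 point.

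Prdm1 was the factor added in PIP. Against PI4, all 8 tested members were lower in PIP in 2 of 2 pairs in UMIs summed per library. None passed the test in the fit over 16 transduced libraries (edgeR), beside 0.137% of all genes. At an unadjusted p under 0.05 there were 3 members, beside 1696 of 16090 genes. H2-Ab1 had 8.95 CPM in PIP and 81.6 CPM in PI4 at day 9, and 6.41 CPM in PIP and 67.3 CPM in PI4 at day 3 (log2 change -3.15 ± 0.76, adjusted p = 0.177). At day 9, single cells held much of this, 295 of the 643 H2-Ab1 UMIs in PI4 and 232 of the 760 in PIP. In PI4 day 9, 1 cell also held 251 of the 725 H2-Aa UMIs. H2-Aa had 25.2 and 22.4 CPM in PIP at days 9 and 3, against 92.0 and 92.7 CPM in PI4, so that H2-Aa UMIs were 2.81 and 3.49 times those of H2-Ab1 in PIP and 1.13 and 1.38 times in PI4. H2-DMb1 had 6.43 and 4.23 CPM in PIP, against 18.5 and 20.3 CPM in PI4 (-1.72 ± 0.52, adjusted p = 0.268). DESeq2 called H2-Ab1 and H2-DMb1 lower among 628 of 16090 genes it called, as did edgeR without PI8 day 9 among 660 of 16847. Ciita had 1.00 and 1.74 CPM in PIP, against 1.78 and 4.47 CPM in PI4 (-0.97 ± 0.97, adjusted p = 0.829). Of PI4 cells, 60.3% at day 9 and 67.8% at day 3 had under 10000 UMIs, against 1.77% and 1.36% of PIP cells. Averaged over cells, day 9 levels were higher in PIP for Cd74 (311 CPM against 194 CPM in PI4) and H2-Eb1 (41.1 and 24.8). The same held for H2-DMb2 (0.802 and 0.396) and Ciita (0.946 and 0.394). H2-Aa (25.5 and 28.3), H2-Ab1 (8.91 and 33.7), H2-DMa and H2-DMb1 stayed lower in PIP at day 9, and at day 3 all 8 stayed lower. The part of depth and of single cells in this was not tested.

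Batf3 was the factor added in PIB. No member passed in PIB against PI8 (edgeR), beside 0.0% of all genes. At an unadjusted p under 0.05 there was 1 member, beside 2987 of 16090 genes. DESeq2 called 0 members and 1281 of 16090 genes. At day 3 all 8 tested members were lower in PIB, with H2-Aa at 66.6 CPM in PIB and 297 CPM in PI8, Cd74 at 930 and 2646 CPM, and Ciita at 8.93 and 18.9 CPM. At day 9, 6 of the 8 were higher in PIB and H2-DMa and H2-DMb2 lower, with H2-Aa at 370 CPM in PIB and 36.3 CPM in PI8 and Cd74 at 1339 and 47.0 CPM, in a comparison that rests on the PI8 day 9 library that stands apart. Without that library, again no member passed (3 at an unadjusted p under 0.05).

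PU.1 in place of Spib was compared beside Irf8 in the Clec9a line. No member passed in PI8 against SI8 (edgeR), beside 0.0% of all genes. At an unadjusted p under 0.05 there was 1 member, beside 2576 of 16090 genes. DESeq2 called 0 members and 883 of 16090 genes. At day 3 the 8 members were 1.67- to 3.53-fold higher in PI8, least for Cd74 and most for H2-Aa. At day 9, 5 of the 8 were lower in PI8, with Cd74 at 47.0 CPM in PI8 and 590 CPM in SI8 and H2-Eb1 at 26.0 and 101 CPM, while H2-DMa, at 137 and 17.7 CPM, H2-DMb2, at 2.91 and 0.346 CPM, and H2-DMb1, at 45.0 and 34.3 CPM, were higher. Without PI8 day 9, 5 members had an unadjusted p under 0.05 and none an adjusted one.

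Irf4 in place of Irf8 was compared over PI4 and PIP against PIB and PI8. None of 8 passed (edgeR), beside 0.00697% of all genes, where the 1 gene called was Irf8 itself. At an unadjusted p under 0.05 there were 3 members, beside 1061 of 14339 genes. H2-DMb1 was the member without overlap, with 6.43, 4.23, 18.5 and 20.3 CPM in the Irf4 arms, against 67.2, 35.7, 45.0 and 112 CPM in the Irf8 arms (log2 change -2.27 ± 0.63, adjusted p = 0.620). DESeq2 called it lower among 335 of 14339 genes it called.

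Counting intervals set neighbours in level apart more often for abundant members than for rare ones. Such intervals narrow with the count, so this does not show a firmer order. Among the 20 pairs of libraries next to each other in level, 95% counting intervals overlapped in 2 for Cd74, in 3 for H2-Eb1, in 4 for H2-Ab1, in 5 for H2-Aa, in 9 for H2-DMa, in 10 for H2-DMb1, in 14 for Ciita and in 17 for H2-DMb2. For Cd74 the order of transduced libraries ran PI8 day 3, SI8 hCD2 day 9, SI8 Clec9a day 3, PIB day 9, PI4 day 3, SI8 hCD2 day 3 and PIB day 3 at the top, each apart from the next. Averaged over cells the order differed, with Cd74 at 711 CPM in PI4 day 3, below SI8 hCD2 day 3 (1115 CPM) and PIB day 3 (1031 CPM). For Ciita it began with PI8 day 3, which was apart from PIB day 3, and then PIB day 3, SI8 hCD2 day 3, PIB day 9, SI8 hCD2 day 9 and SI8 Clec9a day 3 followed with each overlapping its neighbour.

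Shares of cells with at least 1 UMI were taken after thinning every cell to 2500 UMIs, since depth per cell differed. Cd74 was in 98.6% of pDC and in all cDC2 and cDC1 cells, in 89.4% to 97.1% of SI8 hCD2 cells and in 10.7% of PI8 day 9 cells. In SII of the Clec9a line it was in 13.2% of cells at day 9 and 55.3% at day 3, and in SII of the hCD2 line in 5.63% and 37.6%, the first of which is close to the share in MEFs. H2-Aa was in 0.467% of SII cells or fewer, so most Cd74-positive SII cells had no H2-Aa UMI at this depth. In SII Clec9a day 3, 5 of the 1150 cells with Cd74 also had H2-Aa. In MEFs, which give the background, 4.92% and 3.91% of cells held Cd74, 0.347% and 0.196% held H2-Ab1, and 0 and 0.0489% held H2-Aa. Their median depth was 25927 and 18100 UMIs before thinning.

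Ciita was in 66.3% of cDC2, 57.9% of cDC1 and 20.3% of pDC cells, in 4.14% of PI8 day 3 cells and in fewer in each other transduced library. It was detected in no SII or MEF cell after thinning. Before thinning it was in 34.1% of PI8 day 3 and 24.1% of PIB day 3 cells, at median depths of 82866 and 67270 UMIs.

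The shares of cells with H2-Ab1 and with H2-Aa differed between libraries. In SI8 hCD2, H2-Ab1 was in 84.9% of cells at day 9 and 78.0% at day 3, and H2-Aa in 66.7% and 28.9%. In PI8 day 9, H2-Ab1 was in 26.1% of cells and H2-Aa in 8.35%, and in SI8 Clec9a day 9 in 30.9% and 9.55%. In PI8 day 3 the shares were 28.5% and 22.6%, and in PI4 day 3, also a shallow library, 6.46% and 7.58%. In PIP H2-Aa was in more cells, with H2-Ab1 in 0.927% and H2-Aa in 3.63% at day 9. In SI8 hCD2 day 3, H2-Ab1 was 372 CPM in cells under 10000 UMIs and 50.9 CPM in the 11 deeper cells, whereas H2-Aa was 166 and 175 CPM. The part of depth and of free RNA in these values was not tested.

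Within cells, how far the chains went together differed between libraries. In PIB day 9, H2-Ab1 was in 74.8% of cells with H2-Aa (95% binomial interval 65.5 to 82.7) and in 11.4% of cells without it (8.77 to 14.5). In PI8 day 3 the shares were 78.5% and 13.8%, in SI8 Clec9a day 3 55.8% and 9.32%, and in PIB day 3 46.5% and 6.45%. In SI8 hCD2 day 3 they were 81.9% and 76.4%, in SI8 hCD2 day 9 87.4% and 79.8%, and in SI8 Clec9a day 9 35.7% and 30.4%. In the first 4 libraries a subset of cells held both I-A chains. In the last 3 the shares lay closer, with intervals apart in SI8 hCD2 day 9 (84.9 to 89.6 and 75.5 to 83.6) and overlapping in the other 2, and in SI8 hCD2 H2-Ab1 was in most cells, which leaves little room for a difference. PIB day 9 had both chains in 13.0% of cells, against 3.89% if the 2 were independent, and SI8 hCD2 day 3 had both in 23.7%, against 22.6%. Cells of 1 library share their source, so these are descriptions of libraries.

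**Figure D5:**
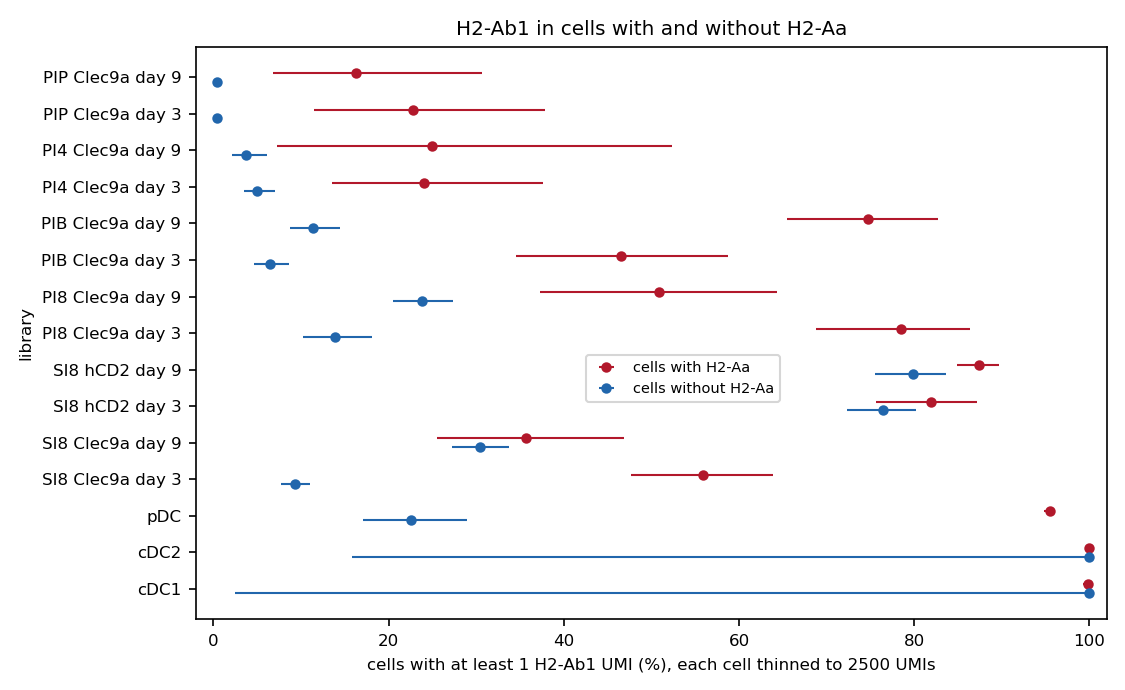
Share of cells with at least 1 H2-Ab1 UMI among cells with H2-Aa (red) and without it (blue), after thinning to 2500 UMIs, in the 15 libraries with at least 10 H2-Aa cells; bars are exact 95% binomial intervals. Red and blue lie far apart in PIB day 9 (74.8% and 11.4%) and close together in SI8 hCD2 day 3 (81.9% and 76.4%).

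The concentration of RNA in few cells differed as well. Of the thinned UMIs of H2-Aa, H2-Ab1, H2-Eb1 and Cd74, the top 10% of cells held 71.3% in PIB day 9, 49.4% in SI8 Clec9a day 9, 46.4% in SI8 Clec9a day 3 and 46.2% in PI8 day 3, against 25.9% and 22.7% in SI8 hCD2 at days 9 and 3, and 14.9% to 18.1% in splenic DCs. They held 88.0% in SII Clec9a day 9, 81.9% in PI4 day 9 and 45.1% to 69.9% in the other transduced libraries except SII hCD2 day 9. In that library and both MEF libraries the share was 100%, since 93.5% to 95.2% of cells held no such UMI. The part of low levels in these shares was not tested. All 4 genes were detected together in 15.6% of PI8 day 3 cells, 11.4% of PIB day 9 cells, 32.0% of SI8 hCD2 day 9 cells and 1 SII cell in all 4 SII libraries. They were detected together in 85.8% of pDC, 99.9% of cDC2 and 99.8% of cDC1 cells. For the DM pair, H2-DMb1 was in 43.9% of H2-DMa cells and 8.41% of the others in PIB day 9, and in 11.1% and 14.2% in SI8 hCD2 day 3.

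Beyond the members, the genes whose level followed most closely the mean of log2(CPM + 1) of H2-Aa, H2-Ab1, H2-Eb1 and Cd74 over 21 libraries were Nfkbie (Pearson r = 0.919), Nckap1l (0.898), Cd180 (0.878), Ms4a6c (0.872) and Arl5c (0.860). Over the 16 transduced libraries they were Timd4 (0.876), S100a1 (0.871), Ifitm6 (0.862), Gng11 (0.858) and Ecscr (0.847). For Ciita they were Nlrp3 (0.926), Rab19 (0.918), Cyp27a1 (0.914), Adap2os (0.910) and Cd300c2 (0.907) over 21 libraries, and Cmklr1 (0.959), AI839979 (0.906), Cmbl (0.868), Lrrc59 (0.860) and Ecscr (0.855) over 16. Among members, Ciita was closest to H2-Eb1 over 21 libraries (0.949) and over 16 (0.891), and H2-DMb2 was far from it over 16 (0.582). These are descriptions over libraries that share depth and line.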

How the data were processed

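The deposited table holds UMI counts per gene and cell for 25991 cells in 21 libraries; per the labels' protocols they are 10x 3′ libraries, and the submitters' processing notes name Cell Ranger 6.0.1, Seurat and mm10. As deposited, each cell had 2501 to 99996 UMIs, at least 791 genes and under 10% mitochondrial counts. Counts were summed per library. Differences were tested with edgeR 4.0.16 (TMM, low-count filter, quasi-likelihood test, Benjamini-Hochberg over all genes tested, threshold 0.05), with DESeq2 1.42.0 as an alternative, and the fits were tested on simulated data. The SE given with an edgeR log2 change was derived from the test, as the absolute change over the square root of its F statistic. CPM are UMIs scaled to a common library total, with exact Poisson intervals, and shares have exact binomial ones, at 95%. Shares were taken after thinning each cell to 2500 UMIs. Scrublet marked 170 cells (0.654%) as doublets, kept except in an alternative. Alternatives also covered scaling, filters, deep cells, single libraries and lines. Day 9 and day 3 were compared with the arm, set and line together, as a block, since a label names each arm at both days. The 10 members and all lists were chosen with earlier results of these data known. All members are named, other list genes by largest called change, at most 6 a comparison, except Rfxap, Creb1, Ifi30, Cd68 and dendritic cell markers, named after their values were seen. A result on a further gene list is not reported here.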

Additional observations from a re-analysis of the deposited data

Results flagged for a closer look

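H2-Oa, at 20.8 CPM, and H2-Ob, at 18.2 CPM, stood above both MEF libraries in PI8 day 9, in genes that no main fit tested. Both values come from the single library whose progenitor markers summed to 1778 CPM, and the part of those cells was not tested.

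For some members the 2 lines moved in opposite directions between days within the same set, each line with 1 library a day, and these differences were not tested. In SI8, day 9 over day 3 was 3.97 in the hCD2 line and 0.714 in the Clec9a line for H2-Aa, 2.68 and 0.845 for H2-Eb1, 1.49 and 0.674 for H2-DMb1, and 2.11 and 0.372 for Cd74. In SII it was 0.158 in the hCD2 line and 3.60 in the Clec9a line for H2-Aa, and 0.529 and 1.63 for H2-Ab1. Of SI8 cells, 97.4% and 98.3% in the hCD2 line at days 9 and 3, and 46.8% and 0.929% in the Clec9a line, had under 10000 UMIs.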

How the results depend on the processing

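No called member changed direction in any alternative fit. Members not called could do so, as did Cd74, H2-Eb1, H2-DMb2 and Ciita in PIP against PI4 at day 9 when averaged over cells. The median log2 change of the 8 members between lines was 0.206, and -0.387 without SI8 Clec9a day 9. Against MEFs at day 9, where 2 members were called, DESeq2 called 6, and no low-count filter, thinning to 2500 UMIs, cells of at least 10000 UMIs and leaving out either MEF library each left 0. At day 3, where 3 were called, DESeq2 called 6, thinning left 1 and leaving out either MEF library left 0; a lone MEF library is then assumed to vary like the others. For PIP against PI4, DESeq2 and the fit without PI8 day 9 each called 2, and for Irf4 against Irf8 arms DESeq2 called 1, where edgeR called 0. The interaction of set and day had 0 to 3 called with single libraries left out. For SII against SI8, the replicate block of line and day called 8 members (4739 genes in all, against 5798), and single libraries left out gave 7 to 8. The hCD2 line alone gave 6 lower, beside 709 of 14027 genes, and the Clec9a line alone 8, beside 1133 of 14798. Without the arm as replicate block, 0 members were called between days. Cd74 was called in 13 of 17 alternatives and Ciita in 16. Fits on single lines, on the interaction and on PIB and PI8 against their references without a library were chosen after seeing the data. A fit of SII against SI8 on deep cells of all 8 libraries was not run, since SI8 hCD2 held 31 and 11. Of the calls of single members, 155 held and 24 were lost; their cause was not tested. Levels and shares were less stable against their counting intervals: 82 CPM values moved and 128 did not when CPM was averaged over cells, 273 shares of cells with a UMI moved and 147 did not without thinning or at 5000 UMIs, and most shares of cells with 2 genes at once, 129 in number, moved at 5000 UMIs. Depth limits Ciita, H2-DMb2, H2-Oa and H2-Ob most.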
